A study of Mus musculus with 15 samples.

Results

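RNA pulled down with an antibody against Dnmt1 from mouse tail fibroblasts was set against RNA pulled down with an antibody against 5-methylcytosine (m5C) from mouse cortex. The comparison used 9 of the 15 libraries of the series: the 6 Dnmt1 RNA immunoprecipitation (RIP) libraries and the 3 m5C RIP libraries of cortex, chosen by their titles. The mice carried a dominant mutation in Dnmt1, and the libraries came from homozygous (Hom), heterozygous (Het) and wild type (WT) littermates of the same sex. The Dnmt1 RIP had 2 libraries of each genotype, made from cultured fibroblast lines fixed in 1% formaldehyde. The cortex m5C RIP had 1 library of each genotype, made from messenger RNA. Tissue, antibody and fixation changed together between the groups, so their parts in a difference cannot be told apart. Which libraries used rRNA depletion or polyA enrichment is not given in the labels, so RNA selection may have differed between the groups as well. The labels do not say whether libraries of a group came from separate animals or cultures, so the p-values rest on the spread between the libraries given, which may be technical.

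Dnmt1 is the enzyme that copies DNA methylation onto the new strand after replication, and it is also known to bind RNA. A RIP library holds what the antibody recovered together with whatever RNA stayed on the beads, so abundant transcripts of the starting cells are always part of it. Cultured tail fibroblasts make collagens, divide, and keep the Hox code of the posterior body. Cortex is made of neurons and glia, whose transcripts for synapses, ion channels and myelin are not part of the fibroblast programme. The comparison asked which RNAs of the Dnmt1 RIP stood above the level that a share of brain RNA would give, and which brain RNAs were missing from it.

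Counts in genes ran from 217173 to 1362757 in the Dnmt1 RIP and from 1310590 to 2408694 in the cortex m5C RIP, so the Dnmt1 RIP values, those of the WT libraries above all, carry more counting error. Lars2, Gm42418, Gm26917 and Gm10800 together held 5.705 to 63.46% of the Dnmt1 RIP counts and 4.313 to 6.125% of the cortex counts. The highest share belonged to Hom library 1, where Lars2 alone held 57.65%. Levels below are CPM (counts scaled to a common total) with these 4 genes left out of the total, and a count of 3, taken as the limit that a 0 allows, was worth 2.521 to 15.53 CPM in the Dnmt1 RIP and 1.304 to 2.438 CPM in cortex. No file among the 9 was at or above another in all genes. In the fibroblast m5C RIP, given here as a description only, WT library 1 had counts at least as high as the Hom library for each of the 31017 genes.

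The libraries labelled fibroblast held brain RNA. All 20 neuron markers were counted in each of the 6 Dnmt1 RIP libraries, and their summed level was 5537 to 8701 CPM there, against 13380 to 14770 CPM in the cortex m5C RIP. In the fibroblast m5C RIP the sum was 1477 to 2161 CPM. Astrocyte genes summed to 4437 to 7971 CPM in the Dnmt1 RIP and 13640 to 14640 CPM in cortex, and the genes of myelin and oligodendrocytes to 1661 to 2868 CPM and 4711 to 5114 CPM. The fibroblast markers were present as well, at a summed 1040 to 22610 CPM in the Dnmt1 RIP against 555.8 to 664.1 CPM in cortex, with S100a4 at 0 in all 3 cortex libraries. Macrophage and microglia genes summed to 196.7 to 6003 CPM in the Dnmt1 RIP, 246.3 to 307.3 CPM in cortex and 8661 to 16000 CPM in the fibroblast m5C RIP. In bulk RNA, fewer cells of a type and less RNA per cell cannot be told apart, and no cause of the brain RNA in these libraries was tested.

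The brain share was read gene by gene against the cortex m5C RIP library of the same genotype. The median neuron marker of the Dnmt1 RIP stood at 23 and 39.8% of its cortex level in the Hom libraries, at 33.8 and 45.1% in the Het libraries and at 58.9 and 31.1% in the WT libraries, on all gene counts. With the 4 dominant genes left out of the totals, the medians were 60.2 and 43.5% (Hom), 43.9 and 45.8% (Het) and 62.2 and 39.1% (WT). Hom library 1 was the lowest of the 6 on the first scale and among the highest on the second. A wider set of 1073 brain genes was taken from libraries outside the comparison: at least 50 CPM in the library titled cortex input, and at least 4 times the level of every fibroblast m5C RIP library. Both libraries titled input carry an anti-IgG antibody label, so the labels leave unclear whether they hold input RNA or an IgG pull-down. Among the 1072 of them counted in all cortex m5C RIP libraries, 88.8 to 96.3% lay within 2-fold of the library's own median share, and so did 85 to 100% of the neuron markers. On the second scale, the neuron marker medians of the fibroblast m5C RIP were 12.8% (Hom), 8.28% (Het), and 13.3 and 10.9% (WT).

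**Figure D1:**
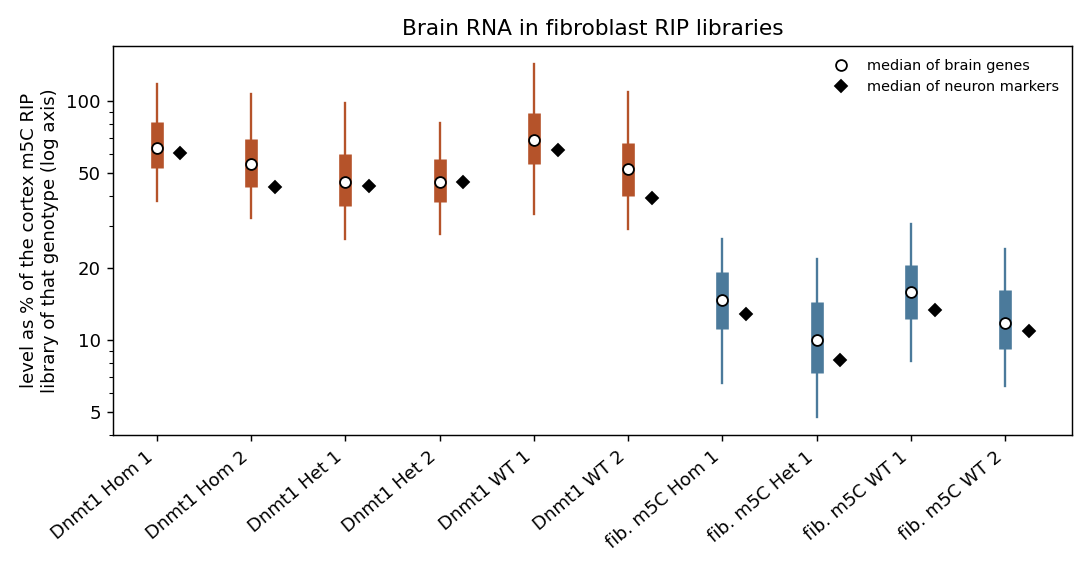
Level of 1072 brain genes in each fibroblast RIP library as a percent of the cortex m5C RIP library of that genotype (log axis, CPM without the 4 dominant genes). Thick bars span the 25th to 75th percentile, thin lines the 5th to 95th percentile, open circles their median and diamonds the median of 20 neuron markers. Neuron marker medians sit between 39.1 and 62.2% in the Dnmt1 RIP (left) and between 8.28 and 13.3% in the fibroblast m5C RIP (right).

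Of 13516 genes tested with edgeR's quasi-likelihood test at a Benjamini-Hochberg adjusted p under 0.05, 2428 (18%) were higher and 1733 (12.8%) were lower in the Dnmt1 RIP than in the cortex m5C RIP, or 30.8% in either direction. The median log2 fold change of all genes was 0.084 with trimmed mean (TMM) scaling and -0.065 with total counts alone, where 1829 genes were higher and 718 lower. Leaving out Hom library 2 of the Dnmt1 RIP gave 1532 higher and 1003 lower genes. Leaving out a cortex library gave 1994 higher and 1067 lower (WT), 1544 and 932 (Het), or 1305 and 764 (Hom).

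Genes of neurons, astrocytes and oligodendrocytes were lower together. Of 1073 brain genes, 802 were called lower and 3 higher, with a median log2 fold change of -1.02 against 0.19 for the other 12443 genes tested. All 20 presynaptic genes fell (median -1.22), as did 21 of 22 postsynaptic and glutamate receptor genes (-1.13), 16 of 18 ion channel genes (-1.08), 12 of 16 GABA and interneuron genes (-1.12) and 15 of 18 axon and neurofilament genes (-1.10). Of the neuron markers 18 of 20 fell, and 12 of 20 did without the Hom cortex library. All 16 astrocyte genes fell (-1.41), and 9 of 15 genes of myelin and oligodendrocytes (-1.13). All 15 tested dendrite-localised and calcium-signalling RNAs fell (-1.24). None of these lists had a member called higher. With total counts alone 8 of 18 ion channel, 6 of 18 axon and 12 of 22 postsynaptic genes fell, and 10 of the 15 dendrite-localised RNAs. Without the Het cortex library 10 of 18 ion channel, 8 of 16 GABA and 13 of 20 neuron marker genes fell, and 10 of 18 axon genes did without the Hom cortex library.

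Genes named from these lists are those with the smallest p or the largest falls among abundant RNAs. Snap25, a SNARE protein of synaptic vesicle fusion, ran from 673 to 978 CPM with a median of 729 in the Dnmt1 RIP, against 2070 (Hom), 2060 (Het) and 1840 (WT) CPM in cortex, a log2 fold change of -1.54 ± 0.22 (SE; edgeR adjusted p = 0.00124). Gria1, an AMPA receptor subunit, ran from 184 to 264 CPM with a median of 207, against 535, 594 and 549 CPM in the same order of cortex libraries (-1.54 ± 0.21; edgeR adjusted p = 0.00109). No library of one group reached the range of the other for either gene. Gad1, the enzyme that makes GABA, stood at 69.4 to 197 CPM (median 99.7) in the Dnmt1 RIP and at 234, 304 and 261 CPM in cortex. Slc1a2, the glutamate transporter of astrocytes, stood at 997 to 1610 CPM (median 1150) and at 3490, 3610 and 3020 CPM. Mbp, a myelin protein gene, stood at 601 to 1040 CPM (median 757) and at 1950, 2000 and 1920 CPM. The groups did not overlap for these genes, whose log2 fold changes were -1.51, -1.61 and -1.46.

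The 3 genes of the brain gene set called higher were named after their values were seen. They met its rule through cortex input, and in the cortex m5C RIP none was at 4 times the fibroblast m5C RIP. The latter held 1.25 to 11.6 CPM of Dhrs9, 5.15 to 21.7 CPM of St8sia4 and 14.6 to 19.7 CPM of Mettl3. Dhrs9, a short-chain dehydrogenase, had 2884 counts in cortex input but 0 in each cortex m5C RIP library, against 6.68 to 41.4 CPM in the Dnmt1 RIP. St8sia4, a polysialic acid synthase of neural cell adhesion molecules, ran from 27.7 to 231 CPM in the Dnmt1 RIP against 16.9, 28.4 and 17.9 CPM in cortex (2.24 ± 0.58; edgeR adjusted p = 0.0114). Mettl3, the catalytic subunit of the RNA m6A methyltransferase, was at 304, 142 and 428 CPM in WT library 2, Het library 1 and Hom library 2, and at 10.4, 17.1 and 42.5 CPM in the other 3 Dnmt1 RIP libraries, against 16 to 25.2 CPM in cortex (2.78 ± 0.91; edgeR adjusted p = 0.0349).

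To ask what stood above or below a brain share, libraries were then scaled so that the summed counts of the 20 neuron markers were equal in all 9. On that scale a log2 fold change of 0 means the level at which neuron markers stood, and the markers themselves are near 0 by construction. The scale factors of TMM and of this scaling differed by -1.269 on the log2 scale between the groups, and the median log2 fold change of all genes tested became 1.363. Of 13516 genes, 9189 (68%) were above the neuron marker level and 1 (0.0074%) was below it.

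The median of the brain genes was 0.24, the 5th to 95th percentile ran from -0.24 to 0.93, and 128 of 1073 (11.9%) were called higher and 1 lower. Among the other genes 9061 of 12443 (72.8%) were called higher, with a median of 1.47. Presynaptic genes had a median of 0.03 with none called in either direction, postsynaptic genes 0.14 with none called, and astrocyte genes -0.13 with none called. With the median ratio of all brain genes as the scale, an alternative added after the data were seen, 7187 genes were above and 8 below, the median presynaptic gene was at -0.21 and the median astrocyte gene at -0.37. The 8 genes below were Bc1, Bcas1, Dzank1, Kcna2, Nrip3, Pja2, Rab3c and Slc1a2.

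**Figure D2:**
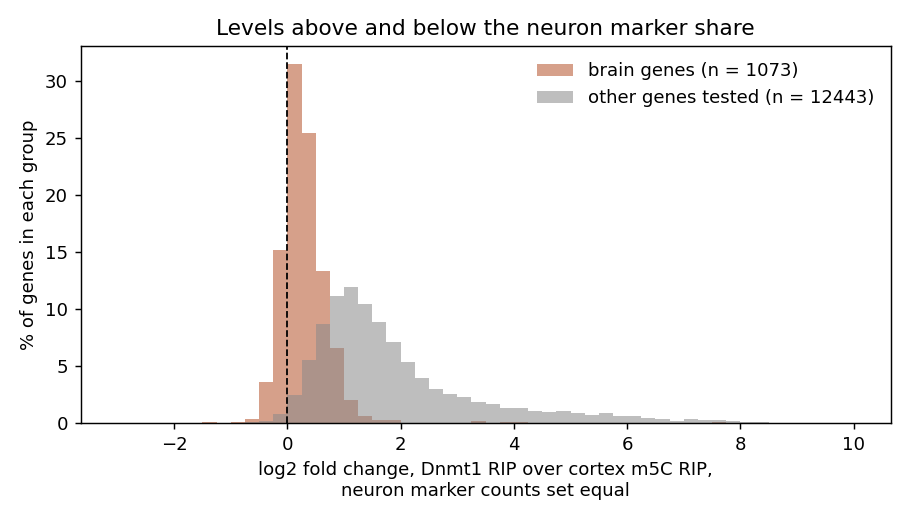
Log2 fold change, Dnmt1 RIP over cortex m5C RIP, after neuron marker counts were set equal, as the percent of each gene group per bin of width 0.25; values beyond the axis are drawn in the end bins. The 1073 brain genes centre near 0.24 and the 12443 other genes tested near 1.47.

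The one RNA called below the neuron marker level was Bc1, a short noncoding RNA made by RNA polymerase III in rodent neurons, carried into dendrites and known to repress translation there. It lies at chr7:144914470-144914637 on the plus strand (mm10, GENCODE M21). Its GENCODE transcript of 168 bases is printed because it is the one RNA called below a brain share, with capitals on the 50-base window that holds the most A (bases 77 to 126, 43 of them A).
Bc1: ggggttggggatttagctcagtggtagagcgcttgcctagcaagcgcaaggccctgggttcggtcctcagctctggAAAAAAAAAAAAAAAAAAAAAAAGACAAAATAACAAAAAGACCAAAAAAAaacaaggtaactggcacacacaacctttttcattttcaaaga
Its first part resembles tRNA and the ID repeats of rodent genomes, so reads shared with repeat copies make its count uncertain.

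Bc1 stood at 85.1 and 23.5 CPM in the Hom, 66.8 and 21.1 CPM in the Het and 104 and 49.2 CPM in the WT libraries of the Dnmt1 RIP. In the cortex m5C RIP it stood at 397 CPM (Hom), 125 CPM (Het) and 423 CPM (WT), and in cortex input at 1250 CPM. The 6 Dnmt1 RIP libraries were all below the lowest cortex library, at 5.92 to 53.7% of the cortex library of their genotype with a median of 19.2%. The 53.7% belonged to Het library 1, set against the Het cortex library, which held the least Bc1. It was above that library's neuron marker median of 43.9%, while Bc1 in the other libraries was below theirs. The log2 fold change was -2.55 ± 0.44 with TMM scaling (edgeR adjusted p = 0.00178) and -1.32 ± 0.43 with equal neuron marker counts (edgeR adjusted p = 0.0185). The second call was lost without the WT cortex library (-1.21, edgeR adjusted p = 0.0842) and without the Hom cortex library (-0.92, edgeR adjusted p = 0.162), and held under the other settings, from -2.34 to -1.05. In the fibroblast m5C RIP Bc1 ran from 1.93 to 8.72 CPM.

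The other RNAs with the largest falls on the TMM scale were not called below the neuron marker level. They included the haemoglobin genes Hbb-bs, Hba-a2 and Hba-a1 of red blood cells, whose near-identical copies make single counts uncertain. Hbb-bs ran from 6.59 to 37.2 CPM (median 11.3) in the Dnmt1 RIP against 43.5, 86.7 and 47.1 CPM in the Hom, Het and WT cortex libraries (-2.13 ± 0.49; edgeR adjusted p = 0.00597), and its value with equal neuron marker counts was -0.88 (edgeR adjusted p = 0.129). Syt4, a synaptotagmin of dense-core vesicles, ran from 15 to 57.9 CPM (median 25.1) against 106, 107 and 76.4 CPM. Its log2 fold change was -1.84 ± 0.35 (edgeR adjusted p = 0.0025), and -0.53 with equal neuron marker counts (edgeR adjusted p = 0.253). Nrip3 (-1.86), Rprml (-2.13), Rasl11b (-1.86), Tspan2 (-1.83), Tmem200c (-1.82) and Bcas1 (-1.78), a gene of early myelinating oligodendrocytes, fell on the TMM scale as well. The mitochondrially encoded mt-Nd4l ran from 2.66 to 73.9 CPM against 145, 213 and 74.0 CPM (-2.12 ± 0.49; edgeR adjusted p = 0.00617). Across the 13 mitochondrially encoded genes 6 fell and none rose, with a median of -1.05. Without the Het cortex library 1 of 12 fell.

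**Figure D3:**
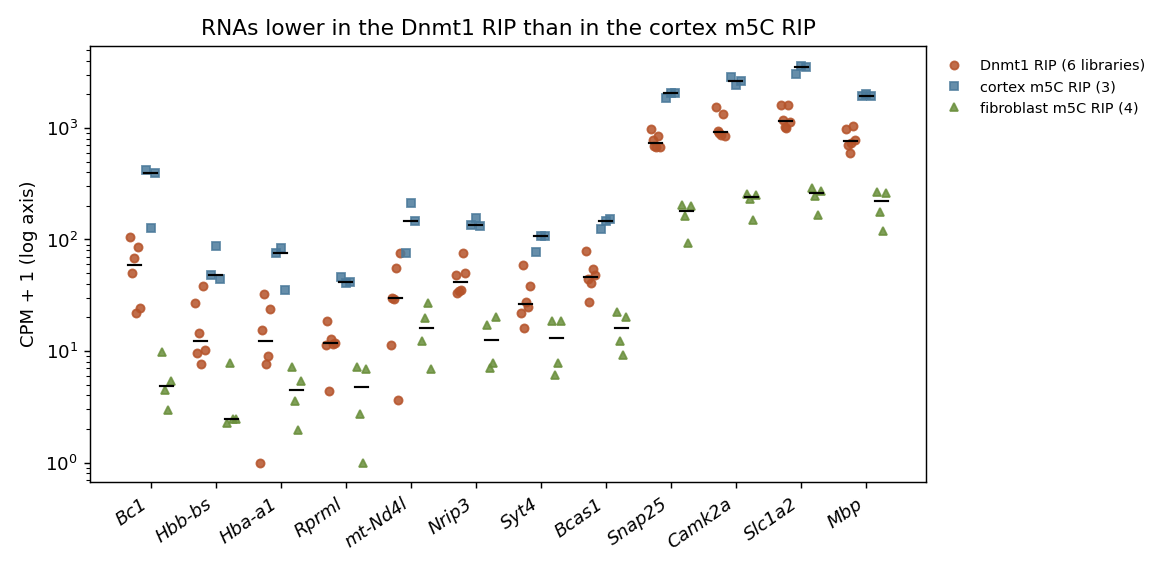
CPM + 1 (log axis, totals without the 4 dominant genes) of RNAs named for their falls and of 4 abundant brain genes in the Dnmt1 RIP, the cortex m5C RIP and the fibroblast m5C RIP. Each point is 1 library and each bar a median. The Dnmt1 RIP points of Bc1 lie between 21.1 and 104 CPM, all below the cortex points.

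No abundant brain RNA was absent from the Dnmt1 RIP. Of 15281 genes counted in all 3 cortex libraries, 12 had 0 counts in all 6 Dnmt1 RIP libraries, and their highest count in a cortex library was 16. All 12 carry placeholder names. Conversely, 598 of the 9050 genes at 0 in all 3 cortex libraries were counted in all 6 Dnmt1 RIP libraries, and 14 of these were also at 0 in all 4 fibroblast m5C RIP libraries.

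Some neuronal genes stood above the neuron marker level, and these were named after their values were seen. With TMM scaling 10 of 18 genes of neurexins, neuroligins and adhesion were called lower and none higher (median -1). With equal neuron marker counts 6 of the 18 were called higher, against 68% of all genes tested and 11.9% of brain genes. They were Nlgn1, Cntnap2, Cntn5, Csmd3, Ctnna2 and Dscam, with log2 fold changes of 0.74 to 1.47. Csmd3 stood at 183 and 164 CPM (Hom), 96.9 and 79.1 CPM (Het) and 166 and 174 CPM (WT) in the Dnmt1 RIP, against 150, 130 and 130 CPM in cortex, 1.12 ± 0.26 (edgeR adjusted p = 0.00382). The groups overlapped in CPM, so this gene was above the neuron markers of its own libraries but not above cortex. The count was 1 with the median ratio of brain genes as the scale, 1 without the Hom cortex library and 2 without either other cortex library. Of the neuron markers themselves, Tubb3 (0.95), a tubulin, and Elavl4 (1.28), an RNA-binding protein, were called higher. Both are also read in the fibroblast m5C RIP, at 38.5 to 94.7 CPM and 11.6 to 62.3 CPM.

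Among 16 transcription factors of cortical layers, 8 were higher with equal neuron marker counts, against 68% of all genes tested, and 4 were without the WT cortex library (4 to 10 over all omissions of 1 library). The median was 1.01, between the 0.24 of brain genes and the 1.47 of the other genes. The list holds genes used outside the brain too, and 2 of its members met the rule for brain genes. With TMM scaling 5 of the 16 were lower (Bcl11b, Cux2, Rorb, Mef2c and Neurod2) and 1 was higher, with a median of -0.28. Those lower numbered 1 to 5 over omissions of 1 library. Foxp2, a forkhead factor of deep-layer neurons, ran from 72.5 to 217 CPM (median 147) in the Dnmt1 RIP against 49.1, 39.3 and 30.1 CPM in the Hom, Het and WT cortex libraries. It was higher with TMM scaling too (1.71 ± 0.34; edgeR adjusted p = 0.00332), with no overlap between the groups, and stood at 23.3 to 83.5 CPM in the fibroblast m5C RIP. Of the brain RNAs, chosen by their ratio over the fibroblast m5C RIP, Vip, a neuropeptide of interneurons, had 10.1 to 21.7 CPM (median 15.9) in the Dnmt1 RIP and 13.9, 6.56 and 7.32 CPM in cortex, 1.83 ± 0.55 with equal neuron marker counts (edgeR adjusted p = 0.0137). Olig2, the factor that specifies oligodendrocytes, had 18.4 to 60.8 CPM (median 31.5) and 36.9, 34.2 and 24.4 CPM, 1.19 ± 0.40 (edgeR adjusted p = 0.0223). The groups overlapped in both.

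The level of brain genes on this scale was also read by exon length. By quartile of summed exon length (from 168 bases up), the median log2 fold change with equal neuron marker counts was 0.19, 0.21, 0.24 and 0.30, and 6.39, 8.68, 14.3 and 17.4% of the genes were called higher. Over all genes tested the order was the other way, with medians of 1.51, 1.41, 1.41 and 1.15. By quartile of exon GC content the medians were 0.20, 0.24, 0.23 and 0.30. These are descriptions across genes, with no test.

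Fibroblast genes rose. Of 37 extracellular matrix genes 26 were higher in the Dnmt1 RIP with TMM scaling and none lower (median 2.70), and 36 stood above the neuron marker level (median 3.99). The calls numbered 20 to 27 when each library was left out. Members with few cortex counts, such as Postn with 12 in all cortex libraries together, passed the filter through the Dnmt1 RIP alone. For such members the number called is a description and no support. Col3a1, a fibrillar collagen, was at 152 and 234 CPM in the Hom, 2000 and 1190 CPM in the Het and 31.1 and 191 CPM in the WT libraries of the Dnmt1 RIP, against 5.65, 13.8 and 12.2 CPM in the cortex libraries of the same order (4.86 ± 0.76; edgeR adjusted p = 0.00148). Every Dnmt1 RIP library was above every cortex library, and the 2 Het libraries were the highest. Postn, the matrix protein periostin, ran from 15.5 to 372 CPM (median 77.1) against 1.3, 5.10 and 1.63 CPM (5.22 ± 0.75; edgeR adjusted p = 0.00125). Both were higher still in the fibroblast m5C RIP, at 2610 to 3730 CPM for Col3a1 and 808 to 1240 CPM for Postn.

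Of 11 fibroblast markers tested, 8 rose (5 without the Hom cortex library) and 1, Thy1, fell. Thy1 is a surface protein of fibroblasts and of neurons alike and stands in both marker lists. It had 140 to 319 CPM in the Dnmt1 RIP and 391, 304 and 414 CPM in cortex (-1.15 ± 0.28; edgeR adjusted p = 0.00802), with overlap between the groups. Vim, the intermediate filament of mesenchymal cells, ran from 234 to 730 CPM (median 443) against 30.9, 29.1 and 30.9 CPM, 3.70 ± 0.34 (edgeR adjusted p = 0.000503), and Prrx1, a mesenchymal homeobox factor, from 45.2 to 134 CPM (median 78.0) against 13.0, 8.74 and 16.3 CPM, 2.47 ± 0.41 (edgeR adjusted p = 0.00165). The groups were separate for both. Contractile and actin genes rose in 5 of 17 cases (Cnn2, Tpm2, Tpm4, Cald1 and Zyx; median 0.66), against 18% of all genes tested. They rose in 2 without Hom library 2 of the Dnmt1 RIP or the Het or Hom cortex library. Of 21 immediate early genes 4 rose (Ier2, Ier3, Myc and Zfp36) and 2, Egr1 and Egr3, fell (median 0.48), near the 18% higher and below the 12.8% lower of all genes tested. Leaving out 1 library gave 1 (without the Het cortex library) to 6 higher and 0 (without the WT cortex library) to 3 lower. Of 21 growth factor and TGF-beta genes 8 rose and Igfbp5 alone fell (-1.15), against 18% and 12.8% of all genes tested. Without the Het or the Hom cortex library 5 rose.

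Cell cycle genes rose in 16 of 20 cases (median 2.97), none fell, and all 20 stood above the neuron marker level (median 4.24). All 20 listed genes passed the filter, those with few cortex counts through the Dnmt1 RIP alone. For such genes the number called is a description and no support. The 20 summed to 552.6 to 799.8 CPM in the Dnmt1 RIP and 144.2 to 169.1 CPM in cortex. Without the Hom cortex library 11 of 20 rose. Top2a, the topoisomerase that untangles chromosomes, stood at 31.1 to 110 CPM (median 60.4) in the Dnmt1 RIP against 1.74, 4.37 and 0.813 CPM in the Hom, Het and WT cortex libraries (4.62 ± 0.53; edgeR adjusted p = 0.000785). Cdk1, the kinase that starts mitosis, stood at 21.3 to 52.9 CPM (median 34.8) against 0, 0 and 0.813 CPM (6.65 ± 0.80; edgeR adjusted p = 0.000909). Its cortex level rests on 1 count, so the size of the change is uncertain. The ratio of its counts was 187, with a 95% interval of 33 to 7420 from counting error alone. No Dnmt1 RIP library overlapped cortex in either gene. The fibroblast m5C RIP held 84.7 to 106 CPM of Top2a and 72.7 to 86.7 CPM of Cdk1.

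Hox genes, which set position along the body axis and are largely silent in forebrain, summed over all 39 to 457.2 to 1001 CPM in the Dnmt1 RIP and 20.43 to 52.02 CPM in the cortex m5C RIP, against 320.8 to 575.5 CPM in the fibroblast m5C RIP. The 23 that passed the filter were all called higher (median 4.37, or 4.0 with the 2 genes at 0 in cortex set to their bound), and 15 to 25 were when each library was left out. Genes at 0 or at a few counts in cortex pass the filter through the Dnmt1 RIP alone, so this count describes them and is no support. Hoxb9 stood at 29.2 and 20.2 CPM (Hom), 30.1 and 31.6 CPM (Het) and 25.9 and 37.6 CPM (WT), and was at 0 in each cortex library, at least 13.3-fold higher against 3 counts per cortex library. Hoxa5 had 15.8 to 49.2 CPM (median 29.8) against 0, 0 and 1.63 CPM (5.76 ± 0.89; edgeR adjusted p = 0.0014), and only 1.46 to 12.5 CPM in the fibroblast m5C RIP. Its cortex level rests on 2 counts, and it too passed the filter through the Dnmt1 RIP. The ratio of its counts was 73.5, with a 95% interval of 19.9 to 614 from counting error alone.

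**Figure D4:**
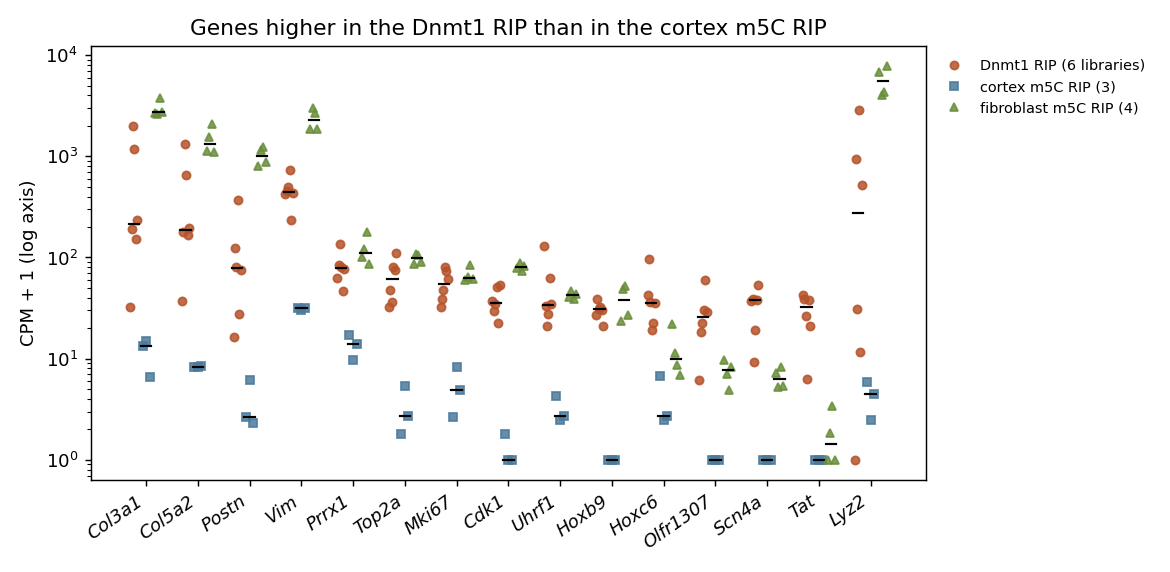
CPM + 1 (log axis, totals without the 4 dominant genes) of genes higher in the Dnmt1 RIP than in the cortex m5C RIP, with the fibroblast m5C RIP beside them. Each point is 1 library and each bar a median. Col3a1, Postn and Cdk1 are below the fibroblast m5C RIP in all 6 libraries, while Olfr1307, Scn4a and Tat have Dnmt1 RIP medians of 24.7, 36.7 and 31.1 CPM, above it; Lyz2 overlaps cortex in single libraries.

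The largest rises with no overlap between the groups were mostly of genes at 0 in the 3 cortex libraries, which passed the filter through the Dnmt1 RIP alone. Beside Hoxb9, they included Scn4a, the sodium channel of skeletal muscle, Mroh2b, Styk1, the retinal phosducin gene Pdc, the liver enzyme gene Tat, the vomeronasal receptor Vmn2r94 and the olfactory receptor Olfr1307. Scn4a had 8.35 to 52.9 CPM (median 36.7) in the Dnmt1 RIP, was at 0 in the 3 cortex libraries, at least 14.2-fold higher, and had 4.29 to 7.22 CPM in the fibroblast m5C RIP. Tat had 5.27 to 41.4 CPM (median 31.1) in the Dnmt1 RIP, was at 0 in cortex, at least 12.5-fold higher, and had 0 to 2.41 CPM in the fibroblast m5C RIP. In both, the lowest Dnmt1 RIP library was above the highest fibroblast m5C RIP library. Il1rl1, the receptor of interleukin 33, was the reverse case: at least 14.7-fold higher than cortex (10.4 to 71.1 CPM, median 25.8), but at 128 to 478 CPM in the fibroblast m5C RIP. The largest bound belonged to Slc34a2, a phosphate transporter, at 29.2 and 92.4 CPM (Hom), 294 and 9.22 CPM (Het) and 56.9 and 547 CPM (WT), at least 81.3-fold higher than the 0 of each cortex library.

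Olfactory receptor genes, which nasal sensory neurons use, were counted in the Dnmt1 RIP in all but 7 of 1092 cases. The 1092 summed to 4505 to 8964 CPM in the Dnmt1 RIP, 149.9 to 627.5 CPM in the cortex m5C RIP and 1267 to 1923 CPM in the fibroblast m5C RIP, and 624 of them were at 0 in all 3 cortex libraries. Only 49 passed the filter, of which 44 were called higher (median 4.76, or 3.63 with the 16 genes at 0 in cortex set to their bound). Leaving out 1 library gave 17 called (without Hom library 2 of the Dnmt1 RIP) to 83 (without the WT cortex library), since the number that passed the filter moved too, and these counts describe genes that pass mostly through the Dnmt1 RIP. Olfr713 had 11.9 to 31.7 CPM (median 23.6), 0 in each cortex library, and 2.49 to 5.78 CPM in the fibroblast m5C RIP, at least 10.4-fold higher than cortex. Receptors share sequence within subfamilies, so single counts are uncertain. Of 19 germline genes 7 passed the filter and 6 rose, and without the Hom cortex library 3 of 11 did. The 19 summed to 150.2 to 358.9 CPM in the Dnmt1 RIP and 24.04 to 46.33 CPM in cortex. Those tested thus pass mostly through the Dnmt1 RIP, so the count describes them and is no support. Mov10l1, a helicase of the piRNA pathway, had 3.34 to 53.2 CPM (median 20.2) against 0.869, 0 and 2.44 CPM in the Hom, Het and WT cortex libraries (4.39 ± 0.85; edgeR adjusted p = 0.00283). Its cortex level rests on 5 counts, so the same limit holds for it. Of 12 genes that overlap ribosomal RNA or satellite repeats 11 rose, Gm10800 by 5.37 ± 0.86 (edgeR adjusted p = 0.00156); their reads can be shared among repeat copies.

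Xist, the long noncoding RNA of X inactivation, was at 16.8 to 50.1 CPM (median 35.4) in the Dnmt1 RIP, above the 0.869, 0.728 and 4.06 CPM of cortex and the 3.85 to 9.97 CPM of the fibroblast m5C RIP (4.04 ± 0.64 over cortex; edgeR adjusted p = 0.00155). Of the 9 nuclear long noncoding RNAs it was the sole one to rise, and 5 fell: Malat1, Meg3, Kcnq1ot1, Snhg11 and Miat, by -0.75 to -1.62. Without the Hom cortex library, and with total counts alone, 1 fell. Malat1 had 5940 to 12000 CPM (median 9990) in the Dnmt1 RIP and 23400, 22400 and 17300 CPM in cortex, and with equal neuron marker counts its value was -0.12 (edgeR adjusted p = 0.717). Strand was not given for the counting, so reads of Xist or Kcnq1ot1 and of their antisense partners cannot be told apart. Among 18 imprinted genes 6 fell, Peg3 by -1.33 among them, against 12.8% of all genes tested. The list holds 6 genes that met the rule for brain genes, and 802 of the 1073 brain genes fell. Of the 18 imprinted genes 3 rose: Magel2, Nnat and Sgce, near the 18% of all genes tested. Leaving out 1 library gave 0 (without Hom library 1 of the Dnmt1 RIP) to 3 higher and 2 (without the Hom cortex library) to 7 lower.

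Dnmt1 (chromosome 9, 20907209 to 20959888, minus strand, mm10), the target of the antibody, was not called with TMM scaling. Its RNA had 2050 to 10200 CPM (median 2600) in the Dnmt1 RIP against 1166, 1214 and 1736 CPM in the Hom, Het and WT cortex libraries, with no overlap (1.18 ± 0.45; edgeR adjusted p = 0.0639). The 10200 CPM was that of Hom library 2, and the other Dnmt1 RIP libraries ran from 2050 to 3940 CPM. In the fibroblast m5C RIP it stood at 735 CPM (Hom), 413 CPM (Het), and 10700 and 632 CPM (WT libraries 1 and 2). With equal neuron marker counts Dnmt1 RNA was higher (2.50 ± 0.56; edgeR adjusted p = 0.00333). On that scale 68% of all genes tested were called higher, with a median of 1.363 over all genes. Of 17 genes of DNA methylation and demethylation 2 rose, a share below the 18% of all genes tested. They were Uhrf1, which brings Dnmt1 to hemimethylated DNA (4.21 ± 0.58; edgeR adjusted p = 0.00112), and Dnmt3b, a de novo methyltransferase (2.62 ± 0.69; edgeR adjusted p = 0.0123). Uhrf1 had 20 to 129 CPM (median 32.7) in the Dnmt1 RIP against 1.74, 1.46 and 3.25 CPM in cortex. It had 37.6 to 45.5 CPM in the fibroblast m5C RIP, within its Dnmt1 RIP range. Dnmt3b had 10 to 58.5 CPM in the Dnmt1 RIP and 3.43 to 7.47 CPM in the fibroblast m5C RIP. The list's median of 0.03 was below 0 with total counts alone (-0.10), with no filter (-0.12), and without Het library 1 of the Dnmt1 RIP (-0.02), the WT cortex library (-0.06) or the Het cortex library (-0.10).

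Cytosolic ribosomal protein genes rose in 47 of 76 cases and none fell (median 1.48), with 19 to 63 called when each library was left out. The summed level of the family was 9418 to 36150 CPM in the Dnmt1 RIP, 5976 to 6242 CPM in cortex and 46320 to 54760 CPM in the fibroblast m5C RIP. Rps20 had 167 to 538 CPM (median 287) against 41.3, 24 and 49.6 CPM (2.82 ± 0.42; edgeR adjusted p = 0.00135). Nuclear-encoded genes of the respiratory chain went both ways, with 5 of 70 higher and 10 lower (median -0.21), against 18% and 12.8% of all genes tested. Leaving out 1 library gave 1 (without the Het cortex library) to 5 higher and 1 (without the Hom cortex library) to 12 lower. Heat shock chaperones fell in 3 of 13 cases (Hspa8, Hsph1 and Dnaja1), against 12.8% of all genes tested. Their median of -0.08 was 0.01 with RLE size factors and 0.04 without Hom library 2 of the Dnmt1 RIP. Of 18 replication-dependent histone genes tested 1, Hist1h2ac, rose, against 18% of all genes tested. The median of the histone genes, -0.62, became 0.65 without the filter on low counts. Of 38 clustered protocadherins 3 fell, and of 252 zinc finger genes 29 rose and 7 fell (median 0.17), against 18% and 12.8% of all genes tested; without the Hom cortex library 8 and 2 of 265 did.

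Macrophage genes varied widely among the Dnmt1 RIP libraries. Lyz2, lysozyme of macrophages, stood at 10.6 and 516 CPM in the Hom, 30.1 and 2880 CPM in the Het and 0 and 929 CPM in the WT libraries, against 3.48, 1.46 and 4.88 CPM in cortex (7.12 ± 1.86; edgeR adjusted p = 0.0118). The other 5 libraries were above cortex, while the 0 of WT library 1, where 3 counts are worth 15.53 CPM, cannot be placed against it. The fibroblast m5C RIP held 4010 to 7860 CPM. Of 15 macrophage and microglia genes Lyz2, Fcer1g and Trem2 rose (median 1.81), a share near the 18% of all genes tested. None was called without Hom library 2 of the Dnmt1 RIP or without any 1 of the 3 cortex libraries, and 7 were without Het library 1. Of 12 endothelial genes none was called in either direction, with a median of -0.30.

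Another set of transcripts was high in 1 library of each genotype. Fam221b (chromosome 4, 43659622 to 43669145, minus strand) stood at 7970 CPM in WT library 2, 5080 CPM in Het library 1 and 8570 CPM in Hom library 2, and at 20.7, 94.9 and 26.6 CPM in the other WT, Het and Hom libraries, against 10.9 to 17.1 CPM in cortex (7.94 ± 2.09; edgeR adjusted p = 0.0122). Ybx1, a cold shock protein known to read m5C in RNA, stood at 2330, 1430 and 2440 CPM in the same 3 libraries and at 202, 200 and 138 CPM in the others, against 79.5, 79.4 and 95.1 CPM in cortex (3.60 ± 0.98; edgeR adjusted p = 0.0147). Nsun4, a mitochondrial rRNA m5C methyltransferase, followed with 153, 68.5 and 151 CPM against 15.5, 11.9 and 23.9 CPM (3.04 ± 0.78 over cortex; edgeR adjusted p = 0.0107). In the library titled fibroblast input Fam221b was at 47300 CPM and Ybx1 at 10900 CPM, against 58.3 to 77.3 CPM and 366 to 459 CPM in the fibroblast m5C RIP, whereas Nsun4 was at 21 CPM there, under the 31.54 CPM of 3 counts. Of 11 m5C enzymes and readers 2, Ybx1 and Nsun4, were called higher, a share near the 18% of all genes tested. Neither was without the WT or the Hom cortex library, 1 gene was without WT library 2 or Hom library 2 of the Dnmt1 RIP or the Het cortex library, and 0 to 3 were over all omissions of 1 library.

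Of 31 Hnrnp and Srsf genes, the splicing and RNA packaging proteins, 5 were called higher, below the 18% of all genes tested: Hnrnpa1, Hnrnpa2b1, Hnrnpf, Hnrnpm and Srsf1. Hnrnpa2b1 stood at 5670, 3290 and 6550 CPM in WT library 2, Het library 1 and Hom library 2 and at 575, 484 and 654 CPM in the other 3, against 422, 478 and 367 CPM in the Hom, Het and WT cortex libraries (2.60 ± 0.87; edgeR adjusted p = 0.038). Hnrnpm was at 6500 CPM in fibroblast input and at 268 to 304 CPM in the fibroblast m5C RIP. Hnrnph2 and Hnrnpul2 fell (-1.34 and -0.80). The calls of higher members went to 0 without Hom library 2 of the Dnmt1 RIP and without any 1 of the cortex libraries. Mettl3 and the ATP synthase gene Atp5g3 (1090, 677 and 1230 CPM in the same 3 libraries, 41.4, 113 and 101 CPM in the others) had the same libraries high. What separates these libraries was not tested.

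**Figure D5:**
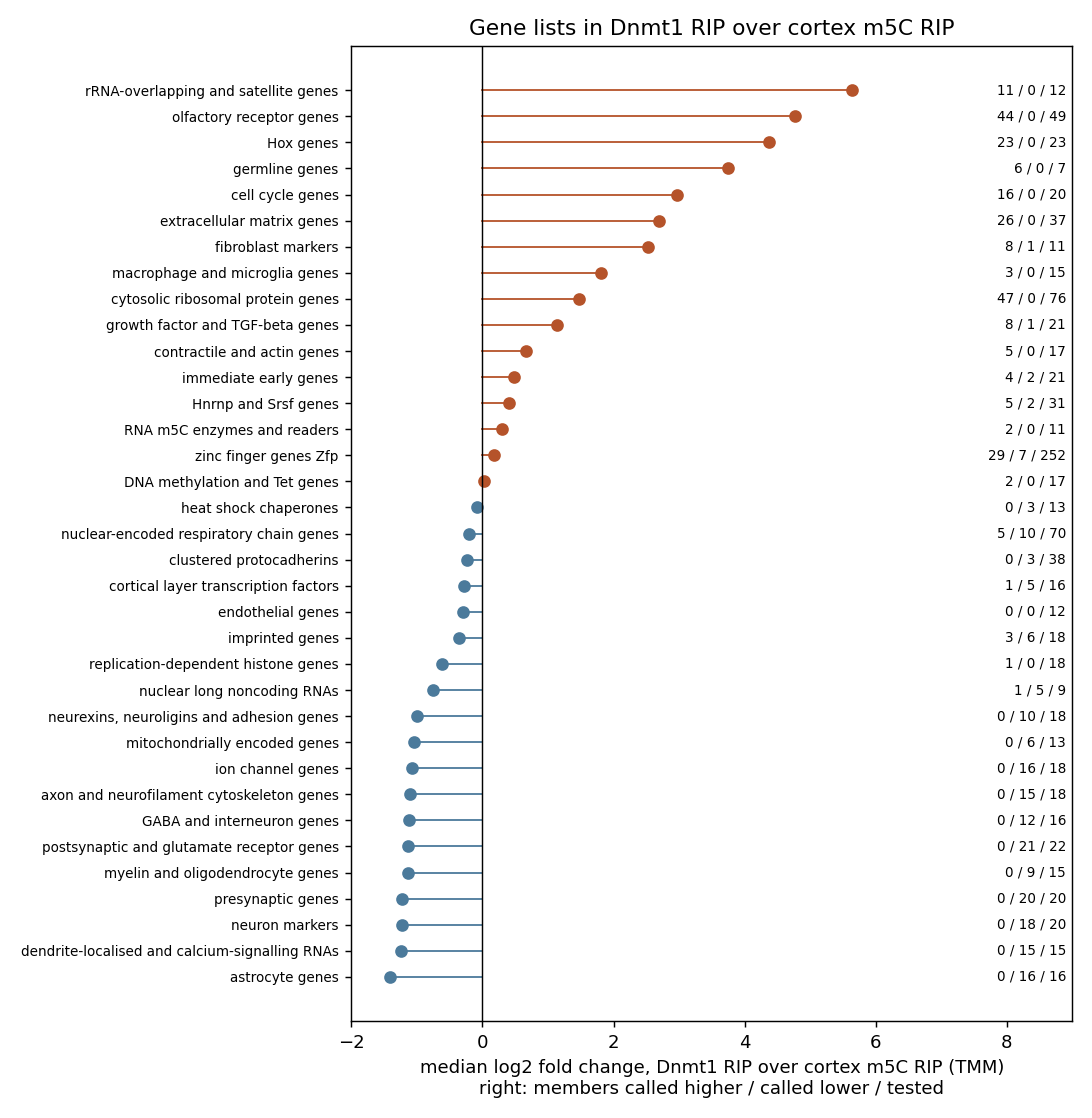
Median log2 fold change (TMM) of the tested members of 35 gene lists, Dnmt1 RIP over cortex m5C RIP, with the numbers called higher, called lower and tested at the right. Lists of neurons, astrocytes and oligodendrocytes lie between -0.28 and -1.41, and that of macrophages and microglia at 1.81. Hox, olfactory receptor and repeat lists lie above 4. With genes at 0 in cortex set to their bound, these 3 medians were 4, 3.63 and 5.42. The list of DNA methylation genes (0.03) turned below 0 with total counts alone, with no filter and without any 1 of 3 libraries. The chaperones (-0.08) turned above 0 with RLE size factors, and the histones (-0.62) without the filter.

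Whether the difference between the groups itself depended on the Dnmt1 genotype was asked with interaction terms. With edgeR, 0 of 13516 genes (0%) passed for Hom against WT and 0 (0%) for Het against WT, while 169 and 335 had an unadjusted p under 0.05, and DESeq2 called 0 in both. Each cortex genotype had 1 library, and in simulated data of this design 0% of 4-fold and 12% of 16-fold interactions were recovered for Hom against WT, so a difference was not detectable at this size.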

How the data were processed

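Gene counts were deposited by the authors, 1 table per library, raw and not normalized. Per the submitters' processing notes, reads were trimmed with Trim Galore 0.4.1 and processed with HISAT2 and featureCounts on mm10; the sources used here name neither strand setting nor annotation. Each cortex table has 5 summary entries that name no gene, kept out of totals and tests. Of all entries in the cortex m5C RIP, 79.28 to 86.25% were not aligned and 4.853 to 7.761% were in genes. Groups came from titles.

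The quasi-likelihood test of edgeR 4.0.16 (R 4.3.3) was run after filterByExpr over the groups (minimum count 10, minimum total 15), with TMM scaling and genotype as a block, Benjamini-Hochberg adjustment over all genes tested and a threshold of 0.05. The common biological coefficient of variation was 0.364 with 5 residual degrees of freedom. The interaction fit had 1 mean per genotype and group, with values of 0.41 and 3. A second scaling set the summed neuron marker counts equal. A standard error (SE) is the size of the log2 change over the root of edgeR's F. A fold against a group at 0 is a bound against 3 counts per library.

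In simulated data with 200 genes changed among 13516, 14% of 2-fold and 63% of 4-fold changes were recovered with TMM scaling, and 4% and 65% with equal neuron marker counts, with 5 and 1 false calls.

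Gene coordinates and exon lengths came from GENCODE M21 (mm10), which gave 1 entry for 30416 of 31017 symbols. Named genes were the 12 largest changes per direction with at least 10 CPM and separate groups, leaving out placeholder names, 8 abundant RNAs (at least 200 CPM in cortex) that fell most, 8 brain RNAs highest with equal neuron marker counts, up to 4 members per list with the smallest p, and Dnmt1. The rule on brain RNAs asked that cortex be at least 4 times every fibroblast m5C RIP library. The comparison, the 35 lists and the markers were chosen with earlier results of these data known. Alternatives were other scalings, no filter, DESeq2 1.42.0, no genotype block, a block for replicate number, omission of each library, and leaving out dominant, histone and mitochondrially encoded genes. Tables and plots used Python 3.11.15, pandas 2.3.3, numpy 2.4.6 and matplotlib 3.10.9. Floors of 3 counts cover counting error only. One result that the rules above would name is not reported here.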

Additional observations from a re-analysis of the deposited data

Results flagged for a closer look

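Among the 6 Dnmt1 RIP libraries, Tat had 1 value far from the others, which chance gives in about 1 in 20 groups. It was lowest in Het library 2 of the Dnmt1 RIP, at 5.27 CPM, against 20.2 to 41.4 CPM in the other 5. That value is near the floor of this library, where 3 counts are worth 3.953 CPM.

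Neuron markers were also read in libraries that enter no test here. The median marker of the fibroblast m5C RIP stood at 12.8% (Hom), 8.28% (Het), and 13.3 and 10.9% (WT) of its level in the cortex m5C RIP of the same genotype. These leave the 4 dominant genes out of totals. In fibroblast input the median marker stood at 30.0% of cortex input, or 13.4% on all gene counts, in a library with 95107 counts outside the 4 dominant genes, where 3 counts are worth 31.54 CPM.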

How the results depend on the processing

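Directions of the headline comparison held under each alternative run. Without the filter on low counts 5512 genes were higher and 2389 lower with TMM scaling, 17015 higher and 3 lower with equal neuron marker counts, 6 higher and 2 lower in the interaction of Hom against WT, and 26 higher in that of Het against WT. Total counts alone left 718 genes lower. With equal neuron marker counts, the genes lower numbered 2 by median ratio of the markers, 8 by median ratio of brain genes, and 5 with cortex input added to the cortex libraries. Leaving out each library in turn gave 1305 to 2728 higher and 764 to 1970 lower genes with TMM scaling, 6560 to 9888 higher and 0 to 3 lower with equal neuron marker counts, and 0 in both interactions. DESeq2 gave 2933 higher and 1441 lower. Leaving the 4 dominant genes out of totals moved the brain share of Het library 1 to 43.9% and of Hom library 1 to 60.2%.

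The replicate numbers do not pair the samples by the labels, and deviations of same-numbered Dnmt1 RIP libraries correlated at 0.00468 (WT and Het), 0.194 (WT and Hom) and 0.0562 (Het and Hom). With the replicate number as a block 2446 genes were higher and 1945 lower with TMM scaling, and 9398 higher and 4 lower with equal neuron marker counts.

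Of the values of named genes under alternatives, 2772 kept their side of the threshold, 147 lost the call and 51 gained one, none with a change of direction. The cause was not tested. Depth limits the WT libraries of the Dnmt1 RIP most, where 3 counts are worth 15.53 and 8.68 CPM.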
